A study of Mus musculus with 4 samples.

Results

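Co-inhibitory receptors and ligands are surface proteins that restrain T cells, and 10 of their genes were followed here by gene symbol: *Pdcd1*, *Ctla4*, *Lag3*, *Tigit*, *Havcr2*, *Cd160*, *Btla*, *Cd200*, *Cd274* and *Cd96*. All 10 were present among the 55367 gene symbols of the count tables, and 9 held enough counts to be tested, *Havcr2* being the exception. The RNA-seq data came from CD4+ T cells taken from the spleen of C57BL/6 mice, with 2 libraries labelled WT and 2 labelled *Satb1* conditional knockout (cKO). SATB1 shapes chromatin folding in the T cell nucleus, and the comparison asks whether loss of SATB1 changes the transcripts of these genes. By the series' design the knockout joins a floxed *Satb1* allele with ThPOK-cre, which is active in cells that have committed to the CD4 lineage. The labels do not say whether the WT mice carry Cre or the floxed allele, and they give neither age nor sex; the methods of the study describe young adult mice of mixed sexes. No treatment was applied.

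A T cell is activated through its antigen receptor and a co-stimulatory receptor such as CD28, and co-inhibitory receptors oppose this. Some of them, such as PD-1, TIGIT and BTLA, carry tyrosine motifs in their tails that recruit phosphatases, whereas CTLA-4 takes the ligands CD80 and CD86 away from CD28. Receptors such as PD-1 appear on recently activated cells and stay high on exhausted cells. CTLA-4 and TIGIT are also abundant on regulatory T (Treg) cells. In a mixed CD4+ population a level is therefore an average over many kinds of cell, and fewer cells of a type and less RNA per cell cannot be told apart.

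The total gene count lay between 4495902 and 6555699 per library. Between 59.4% and 64.5% of uniquely placed reads were assigned to no feature in the counting. The annotation and strand setting used are not given, so where these reads lie is not known. *Satb1* had 5677 and 4390 counts in the libraries labelled WT and 4958 and 3986 in those labelled cKO, with a log2 fold change of -0.05 (SE 0.12) and an edgeR adjusted p of 0.877. The gene-level count of *Satb1* thus neither checks the labels nor goes against them, and directions are given as labelled. *Xist*, the transcript of the inactive X chromosome, had 5447 and 4235 counts for WT against 9 and 6 for cKO, and the Y-linked *Ddx3y* had 0 and 0 against 525 and 597. Sex and genotype therefore cannot be told apart in these libraries. *Cd4*, the defining gene of the sorted cells, had between 5564 and 8356 counts per library. The study describes the libraries of a genotype as biological replicates, and p-values set the difference between the labels against the spread between these replicates.

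The transcripts of the 10 genes lie on 6 chromosomes, by the GENCODE M21 annotation of GRCm38 (the assembly also called mm10). *Pdcd1* spans 94038305 to 94052553 of chromosome 1 (minus strand), and *Ctla4* lies on the same chromosome from 60887000 to 60915832 on the plus strand, 33.1 Mb away. *Ctla4* sits between its relatives in the co-stimulatory family, 114 kb from *Cd28* and 62.1 kb from *Icos*. Chromosome 16 holds *Tigit*, *Btla*, *Cd200* and *Cd96* within 2.47 Mb, with *Btla* and *Cd200* separated by 124 kb. There *Btla* runs from 45224315 to 45257670 on the plus strand, and on the minus strand *Tigit* runs from 43648867 to 43664146, *Cd200* from 45382135 to 45409053 and *Cd96* from 46035657 to 46120251. The remaining members are *Cd160* on chromosome 3 (96798763 to 96829351, minus strand), *Lag3* on chromosome 6 (124904361 to 124911705, minus strand), *Havcr2* on chromosome 11 (46454935 to 46481255, plus strand) and *Cd274* on chromosome 19 (29367455 to 29388095, plus strand).

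Promoter windows of 250 bases before the annotated start were taken from RefSeq GRCm38.p6, and 9 of the 10 genes matched. Shown are the windows of *Pdcd1* and *Ctla4*, the only members that passed the test between genotypes, and that of *Btla*, an abundant member whose levels overlapped between genotypes. They are written 5′ to 3′ on the strand of the gene, at chr1:94052554-94052803 (minus strand), chr1:60908775-60909024 (plus strand) and chr16:45224087-45224336 (plus strand). RefSeq and GENCODE place some starts differently: the *Ctla4* window lies inside the GENCODE span given above, which begins farther upstream, and the last 22 bases of the *Btla* window are exonic in GENCODE. Capitals mark the matches of 6 motifs searched on both strands.
Pdcd1: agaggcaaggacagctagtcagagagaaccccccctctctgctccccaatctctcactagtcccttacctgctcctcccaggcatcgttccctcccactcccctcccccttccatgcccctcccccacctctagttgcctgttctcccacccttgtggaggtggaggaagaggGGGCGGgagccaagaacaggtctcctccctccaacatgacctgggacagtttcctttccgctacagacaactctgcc
Ctla4: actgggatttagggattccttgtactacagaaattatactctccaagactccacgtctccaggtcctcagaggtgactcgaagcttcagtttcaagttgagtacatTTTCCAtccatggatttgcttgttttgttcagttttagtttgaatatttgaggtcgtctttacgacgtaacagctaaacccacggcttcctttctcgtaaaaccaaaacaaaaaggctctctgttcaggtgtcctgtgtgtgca
Btla: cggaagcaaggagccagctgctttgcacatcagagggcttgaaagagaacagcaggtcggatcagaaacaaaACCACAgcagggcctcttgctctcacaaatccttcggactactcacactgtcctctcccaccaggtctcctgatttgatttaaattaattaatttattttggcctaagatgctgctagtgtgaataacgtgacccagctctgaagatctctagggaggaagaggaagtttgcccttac
The *Pdcd1* window was the poorest in A and T of the 3, at 39.6%, against 57.6% for *Ctla4*, 52.8% for *Btla* and a median of 47.6% over 32851 windows of all genes. Its capitals are a GC box (GGGCGG), which 32.7% of all windows hold. The capitals in the *Ctla4* window match the NFAT motif TGGAAA on the opposite strand, found in 18.6% of all windows, and those in the *Btla* window match the RUNX motif TGTGGT on the opposite strand, found in 14.0%. The AP-1 motif TGANTCA (6.75% of all windows), the forkhead motif GTAAACA (3.17%) and the STAT motif TTCNNNGAA (7.02%) had no match in these 3 windows. The matches of the 6 motifs in these windows did not overlap each other. A match is a description of the letters and not a measured binding site.

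Pairs of values are given for WT 1 then WT 2 and for cKO 1 then cKO 2. Levels are in CPM (counts per 1e+06 gene counts of the scaled library), or in CPM per kb of exonic length where genes are compared with each other. In the WT libraries the length-scaled mean level was highest for *Cd96*, a receptor of the nectin-binding family, at 57.3 CPM per kb. *Btla*, which binds the TNF receptor family member HVEM, followed at 38.7 CPM per kb and *Ctla4* at 29.3 CPM per kb. *Tigit*, a receptor for CD155, stood at 17.3 CPM per kb. *Cd274*, which encodes the PD-1 ligand PD-L1, and *Pdcd1* itself stood next at 13.8 and 13.3 CPM per kb, and their ranges over the WT libraries overlapped. *Lag3*, a CD4-related receptor for MHC class II, and *Cd200*, a ligand that restrains myeloid cells, also overlapped, at 8.86 and 8.15 CPM per kb. *Cd160*, another HVEM receptor, reached 4.66 CPM per kb and *Havcr2*, which encodes TIM-3, only 0.627 CPM per kb.

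In the cKO libraries *Cd96* again stood first in length-scaled level, at 64.3 CPM per kb. *Ctla4*, at 44.0 CPM per kb, stood above *Btla*, at 39.1 CPM per kb, and the ranges did not overlap. *Pdcd1* came next at 24.7 CPM per kb, above *Tigit* at 17.9 and *Cd274* at 16.1 CPM per kb, whose ranges overlapped each other. *Cd200* (10.9 CPM per kb) and *Lag3* (10.4 CPM per kb) overlapped as well, and *Cd160* (3.01 CPM per kb) and *Havcr2* (0.594 CPM per kb) closed the order. *Pdcd1* had thus passed *Tigit* and *Cd274*, and *Ctla4* had passed *Btla*, in the order of mean levels.

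**Figure D1:**
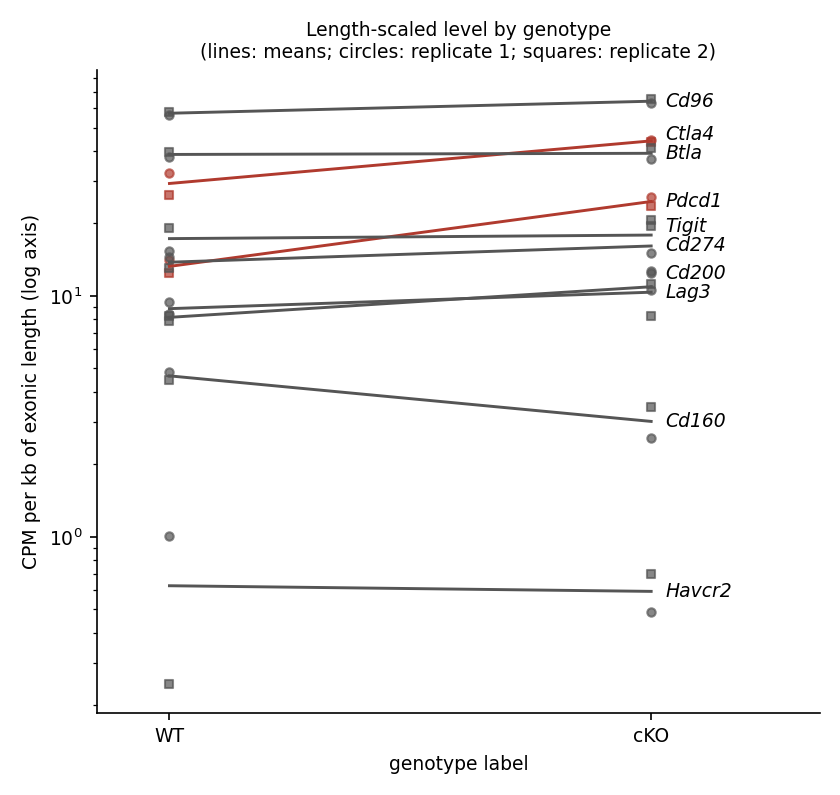
Length-scaled level (CPM per kb of exonic length, log axis) of the 10 genes in the libraries labelled WT and cKO; lines join the group means, circles are replicate 1, squares are replicate 2, and red marks genes past the test. The lines of *Pdcd1*, from 13.3 to 24.7, and *Ctla4*, from 29.3 to 44.0, cross those of other members.

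Of the 9 tested genes, *Pdcd1* and *Ctla4* rose in the libraries labelled cKO and none fell past the threshold (edgeR quasi-likelihood test, adjusted p under 0.05). That is 22.2% of the tested members, where 4.30% of all 12403 tested genes were called, 2.35% higher and 1.95% lower. Without WT 2, however, neither gene passed, with log2 fold changes of 0.81 for *Pdcd1* and 0.44 for *Ctla4*. Fewer of all tested genes passed in that fit as well, and why the calls were lost was not tested. WT and cKO libraries did not overlap in CPM for 5 of the 9 members, 4 higher and 1 lower. Among all tested genes 50.3% did not overlap, 24.8% higher and 25.5% lower in cKO, so this count by itself is near the background. At an unadjusted p under 0.05 there were 4 members and 2370 genes in all. The log2 fold change was positive for 8 members and negative for 1, with a median of 0.22, against 49.8% positive and a median of -0.0015 over all tested genes.

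**Figure D2:**
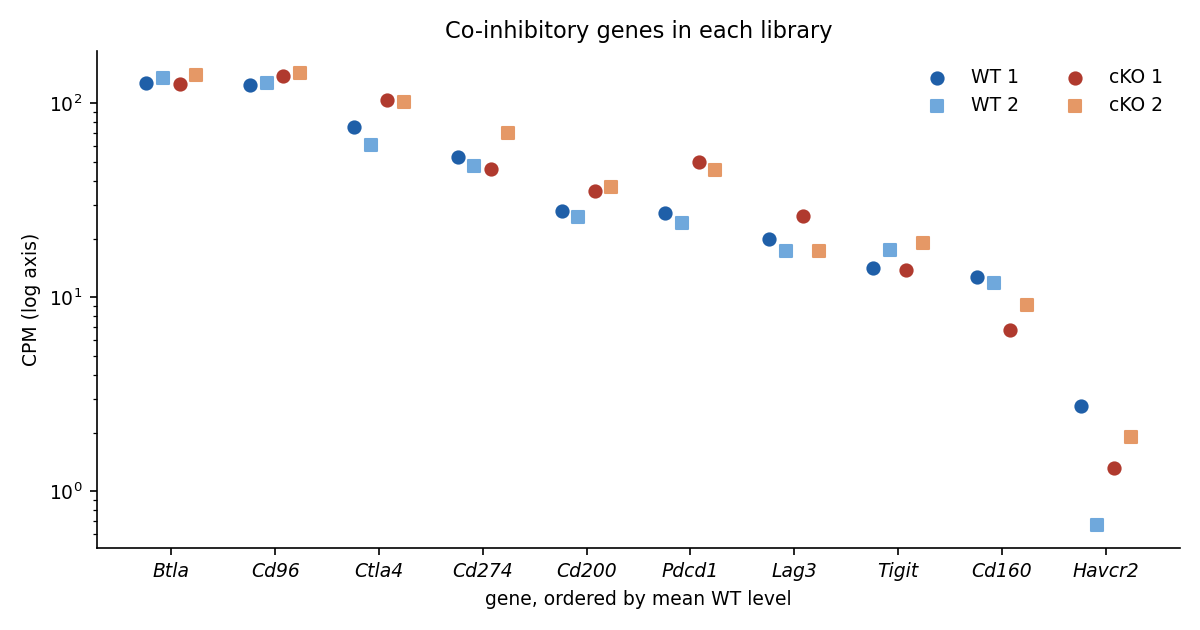
CPM (log axis) of the 10 genes in each of the 4 libraries, ordered by the mean WT level; blue marks WT, red and orange mark cKO, circles replicate 1 and squares replicate 2. Both cKO points lie above both WT points for *Pdcd1*, *Ctla4*, *Cd200* and *Cd96*, and below them for *Cd160*.

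*Pdcd1*, which encodes the receptor PD-1, was measured at 27.1 CPM in WT 1 and 24.1 CPM in WT 2, from 178 and 108 counts. In cKO 1 and cKO 2 it was at 49.7 and 45.5 CPM, from 262 and 215 counts. Both cKO libraries lay above both WT libraries, and the gap was wider than the spread within either genotype. The mean was 25.6 ± 2.14 CPM for WT and 47.6 ± 2.97 CPM for cKO (SD, n = 2 each). The log2 fold change was 0.89 (SE 0.14, edgeR adjusted p = 0.0113), a fold of 1.85 with a 95% interval of 1.48 to 2.31. Without WT 2 it was 0.81 with an adjusted p of 0.117, and the gene kept its call in the other 13 of 14 alternatives. No annotated exon of another gene overlaps *Pdcd1*.

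*Ctla4*, whose product competes with CD28 for CD80 and CD86, was at 75.4 CPM in WT 1 and 61.1 CPM in WT 2, from 495 and 274 counts. It was at 103.8 CPM in cKO 1 and 101.4 CPM in cKO 2, from 547 and 479 counts. The cKO libraries again lay above both WT libraries, which themselves differed more than the cKO libraries did. The mean was 68.3 ± 10.1 CPM for WT and 102.6 ± 1.70 CPM for cKO (SD, n = 2 each). The log2 fold change was 0.58 (SE 0.13, edgeR adjusted p = 0.0390), a fold of 1.496 with a 95% interval of 1.23 to 1.82. Without WT 2 it was 0.44 with an adjusted p of 0.401, and 13 of 14 alternatives kept the call. An adjusted p under 0.01 left neither *Ctla4* nor *Pdcd1*.

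*Cd200* and *Cd96* did not pass the test although their libraries did not overlap. *Cd200* was at 28.0 and 26.1 CPM for WT and at 35.3 and 37.2 CPM for cKO. Its log2 fold change was 0.42 (SE 0.14) with an edgeR adjusted p of 0.142. *Cd96* was at 124 and 127 CPM for WT and at 138 and 143 CPM for cKO. Its log2 fold change of 0.17 (SE 0.10, edgeR adjusted p = 0.403) was small beside that of *Pdcd1*.

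*Cd160*, a receptor best known from natural killer (NK) cells and CD8 T cells, was the only tested member with a negative difference. It was at 12.8 and 11.8 CPM for WT and at 6.83 and 9.10 CPM for cKO. Both cKO libraries lay below both WT libraries, but the log2 fold change of -0.64 (SE 0.25) did not pass, with an edgeR adjusted p of 0.207. It passed without cKO 2, at -0.85 and an adjusted p of 0.0456. The list of CD8 T and NK cell markers moved the same way. Of its 8 tested genes 5 fell, where 1.95% of all tested genes were called lower. Its median log2 fold change was -1.35, and its summed level was 170 and 180 CPM for WT against 81.6 and 64.1 CPM for cKO. The genes that fell were those of the granule proteins *Gzma* (-4.30), *Prf1* (-1.08) and *Nkg7* (-1.61), the NK receptor gene *Klrd1* (-2.79) and *Cd8b1* (-0.91), a chain of the CD8 co-receptor, whose call was lost without WT 2. The other CD8 chain, *Cd8a*, overlapped between the genotypes (-0.07, edgeR adjusted p = 0.941). In that list *Ncr1*, a defining NK cell marker, was at 0 in WT 2 and cKO 2. The part of such cells in the *Cd160* values was not tested. A stretch of 68 exonic bases of *Cd160* overlaps *Pdzk1* on the other strand, and the strand setting of the counting is not given.

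*Btla*, *Tigit*, *Lag3* and *Cd274* overlapped between the genotypes. *Btla* was at 128 and 135 CPM for WT and at 125 and 140 CPM for cKO, a log2 fold change of 0.02 (SE 0.11, edgeR adjusted p = 0.958). The 95% interval of its fold ran from 0.856 to 1.19, which leaves out a change as large as that of *Ctla4*. *Tigit* was at 14.2 and 17.6 CPM for WT and at 13.8 and 19.05 CPM for cKO, with a log2 fold change of 0.06 (SE 0.23, edgeR adjusted p = 0.926). Here the second replicate was the higher one in both genotypes. The 95% interval of the fold of *Tigit* ran from 0.727 to 1.49, with an upper end close to the fold of *Ctla4*.

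*Lag3* was at 19.96 and 17.4 CPM for WT and at 26.4 and 17.4 CPM for cKO. Only cKO 1 stood apart, and the log2 fold change was 0.23 (SE 0.22, edgeR adjusted p = 0.641). *Cd274* was at 52.7 and 47.3 CPM for WT and at 46.1 and 70.7 CPM for cKO. Here cKO 2 stood apart, and the log2 fold change was 0.22 (SE 0.19, edgeR adjusted p = 0.599). Without cKO 1 the value of *Cd274* was 0.49 with an adjusted p of 0.0175, and without cKO 2 it was -0.12. Of the 3622 exonic bases of *Cd274*, 511 overlap *AC119228.1* on the opposite strand. *Pdcd1lg2*, which encodes the other PD-1 ligand and lies 22.8 kb from *Cd274*, had 28 and 21 counts for WT and 17 and 19 for cKO.

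*Havcr2* had 18 and 3 counts for WT and 7 and 9 for cKO. A count of 3 corresponds to between 0.457 and 0.669 CPM in these libraries, so *Havcr2* was at this floor in WT 2. It did not pass the filter on low counts. A fit without that filter gave a log2 fold change of -0.19 (SE 0.56, edgeR adjusted p = 0.918), and a difference was not detectable at this depth.

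**Figure D3:**
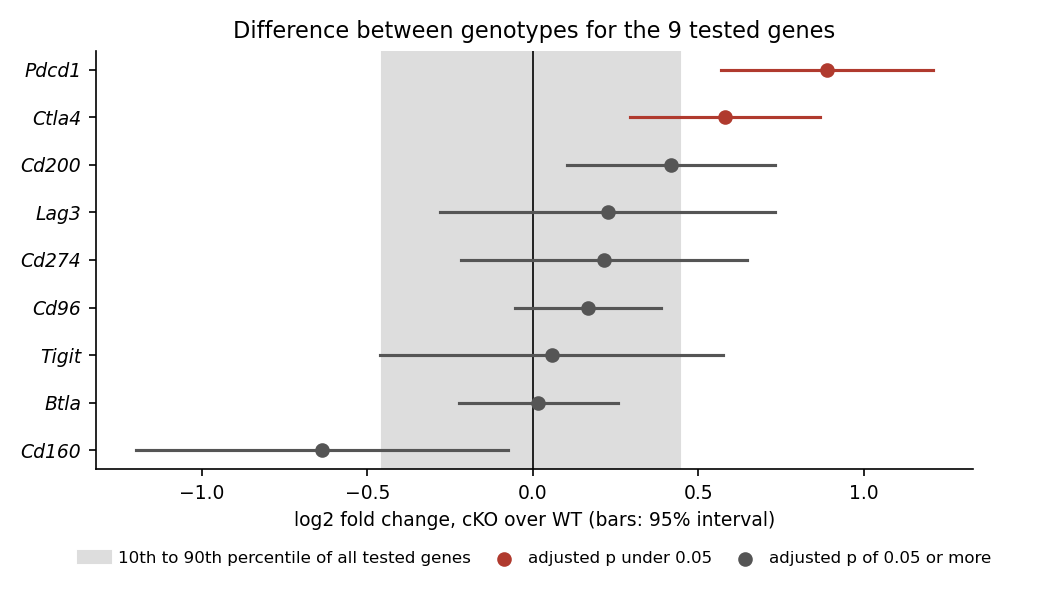
Log2 fold change of libraries labelled cKO over WT for the 9 tested genes, with bars for the 95% interval; red marks an adjusted p under 0.05 and the grey band spans the 10th to 90th percentile of all tested genes. *Pdcd1* (0.89) and *Ctla4* (0.58) lie to the right of the band and *Cd160* (-0.64) to its left.

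Summed over the 10 genes, the level was 484 and 468 CPM for WT and 547 and 585 CPM for cKO. Of the difference between the means, 89.9 CPM, *Pdcd1* and *Ctla4* together made up 56.3 CPM, or 62.6%. Sums in CPM give long and abundant transcripts more weight.

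Several pairs share a ligand, and their count ratios within a library do not depend on library scaling. The pairs were picked after the values had been seen, and with so few libraries the smallest two-sided p of an exact permutation test is 0.333. *Cd28* and *Ctla4* bind the same ligands, and the ratio of *Cd28* to *Ctla4* counts was 4.47 and 5.83 for WT and 3.68 and 3.96 for cKO. The activating receptor gene *Cd226* shares ligands with *Tigit* and *Cd96*. The ratio of *Cd226* to *Tigit* was 5.87 and 4.99 for WT against 4.74 and 3.73 for cKO. The ratio of *Cd226* to *Cd96* was 0.672 and 0.694 against 0.475 and 0.498. The ratio of *Btla* to *Cd160*, which both bind HVEM, was 9.98 and 11.4 for WT and 18.3 and 15.4 for cKO.

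The other genes of the pathways were grouped by role. Their calls stand beside 4.30% of all tested genes called, 2.35% higher and 1.95% lower. Among 14 partners that bind the members, 9 were tested, 2 fell and none rose, with a median log2 fold change of -0.20. *Cd86*, a ligand of CTLA-4 and CD28, had 113 and 70 counts for WT and 27 and 33 for cKO, a log2 fold change of -1.45 (edgeR adjusted p = 0.0151). *Lgals3*, which encodes the galectin-3 ligand of LAG-3, fell by 1.24 (log2, edgeR adjusted p = 0.0319). Neither passed without WT 2, and *Lgals3* did not pass without WT 1 either. *Nectin3* and *Fgl1* had no counts in any library.

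All 10 co-stimulatory genes were tested, of which 3 rose and none fell, with a median log2 fold change of 0.14. Over all tested genes 2.35% were called higher and 1.95% lower. *Tnfrsf4* (OX40) rose by 0.75, *Tnfrsf18* (GITR) by 0.62 and *Cd40lg* (CD40 ligand) by 0.58 on the log2 scale, with edgeR adjusted p-values of 0.0264, 0.0232 and 0.0232. Without WT 2 none of the 3 passed, and without WT 1 only *Tnfrsf4* did. *Cd40lg* is X-linked, and 414 exonic bases of *Tnfrsf18* overlap another gene on the opposite strand. The relatives of *Ctla4* did not pass, with values of 0.18 for *Cd28* and 0.14 for *Icos*, and *Cd226* stood at -0.32 (edgeR adjusted p = 0.158).

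Of 10 other inhibitory receptors, 7 were tested and the edgeR test called none, with 3 at an unadjusted p under 0.05 and 0 called by DESeq2, limma voom or the edgeR exact test. Without the low-count filter 2 passed as higher, *Adora2a* (edgeR adjusted p = 0.0373) and *Siglecg* (edgeR adjusted p = 0.0246). *Adora2a* had 188 and 129 counts for WT and 274 and 144 for cKO, and *Siglecg* had 0 and 0 against 9 and 3. The median log2 fold change of the 7 tested was 0.17. *Lair1*, a collagen receptor, was at 0.72 (edgeR adjusted p = 0.205) and *Cd5*, a damper of antigen receptor signals, at 0.24 (edgeR adjusted p = 0.244). All 14 genes of signalling and trafficking were tested and none was called by edgeR, DESeq2, limma voom or the exact test, with 2 at an unadjusted p under 0.05 and a median of 0.09. *Inpp5d*, which encodes the phosphatase SHIP1, was at 0.33 (edgeR adjusted p = 0.0905), and *Ptpn22*, which encodes another phosphatase, at 0.31 (adjusted p = 0.127). The phosphatase genes *Ptpn11* (SHP-2) and *Ptpn6* (SHP-1) were at 0.19 and 0.18. Leaving out cKO 1 or cKO 2 gave calls to some signalling genes and other inhibitory receptors, and to more of all tested genes as well.

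The 16 transcription factors linked to inhibitory receptor genes were all tested, and 1 rose and 2 fell, with a median log2 fold change of 0.21. The share called over all tested genes was 2.35% higher and 1.95% lower. *Bcl6*, the regulator of follicular helper T (Tfh) cells, rose by 0.61 (log2, edgeR adjusted p = 0.0361). *Eomes* and *Tbx21*, the T-box factors of effector cells, fell by 1.38 and 1.05 on the log2 scale (edgeR adjusted p = 0.0113 and 0.0494). *Bcl6* and *Tbx21* lost their calls without WT 1 and without WT 2, and *Eomes* kept its call without each library. More factors passed without cKO 1 or without cKO 2, as did more of all tested genes. The largest positive values that did not pass were those of *Irf4* (0.86, edgeR adjusted p = 0.0564) and *Maf* (0.53, adjusted p = 0.0673), factors of activated and helper T cells. The edgeR exact test called 3 factors higher and 2 lower.

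**Figure D4:**
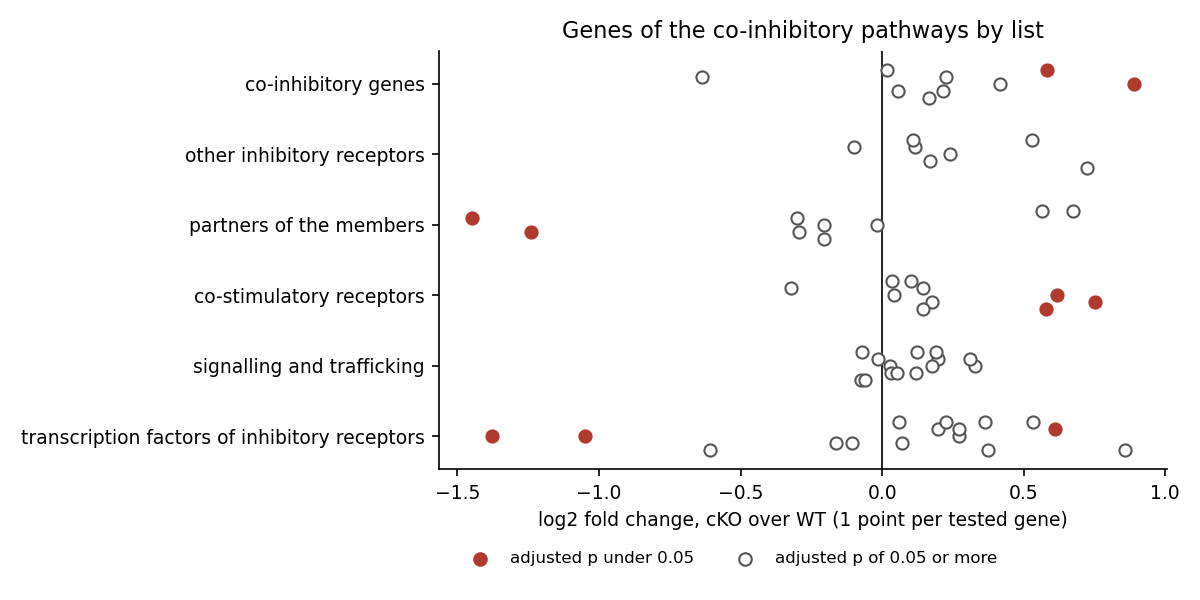
Log2 fold change of libraries labelled cKO over WT for each tested gene of the co-inhibitory genes and 5 related lists; filled red points have an adjusted p under 0.05. Filled points lie to the right in the co-inhibitory and co-stimulatory lists, to the left among the partners, and on both sides among the transcription factors.

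Markers of T cell states differed between the genotypes as well. *Foxp3*, the Treg factor gene, had 926 and 538 counts for WT and 2127 and 2573 for cKO, a log2 fold change of 1.86 (edgeR adjusted p = 0.000447). It is X-linked and overlaps *Ccdc22* and other genes. Of the 10 Treg markers 3 rose and 1 fell, where 2.35% of all tested genes were called higher and 1.95% lower. *Foxp3*, *Nrp1* (0.75) and *Cd83* (0.97) were higher, and the integrin gene *Itgae* (-0.92) was lower. The log2 fold change was positive for 8 of the 10, with a median of 0.66, and *Il2ra*, the gene of the interleukin-2 receptor chain CD25, was at 0.84 (edgeR adjusted p = 0.0509). Without WT 2 only *Foxp3* passed, and without WT 1 *Nrp1* and *Itgae* did not. More Treg markers passed without cKO 1 or without cKO 2, as did more of all tested genes. The summed level of the list was 568 and 485 CPM for WT and 891 and 1113 CPM for cKO. Without *Foxp3*, a sum added after seeing the data, the other 9 markers came to 427 and 365 CPM for WT and 487 and 568 CPM for cKO. Both sums were higher in the cKO libraries, as *Pdcd1* and *Ctla4* were, and the part of Treg cells in these values was not tested. The ratio of *Foxp3* to *Ctla4* counts was 1.87 and 1.96 for WT and 3.89 and 5.37 for cKO, and that of *Foxp3* to *Pdcd1* was 5.20 and 4.98 against 8.12 and 12.0.

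Among 8 tested Tfh markers, whose cells carry much PD-1, *Bcl6* rose while *Pou2af1* (-1.14) and *Slamf6* (-0.44) fell, and the median was 0.06. For this list and the next ones, the share called over all tested genes was 2.35% higher and 1.95% lower. Of the 8, 6 had a positive log2 fold change, among them *Il21* (1.26, edgeR adjusted p = 0.149), a cytokine of these cells. The summed level of the Tfh list was 629 and 606 CPM for WT against 531 and 554 CPM for cKO. Without *Slamf6*, a sum added after seeing the data, it was 304 and 285 CPM for WT against 284 and 324 CPM for cKO and overlapped. *Bcl6* and *Slamf6* did not pass without WT 1 or without WT 2. Of 8 tested activation or memory markers *Cd69* (0.79) rose and *Gzmb* (-3.72) fell, with a median of -0.12, and *Cd69* did not pass without WT 2. More activation or memory markers passed without cKO 1 or without cKO 2, as did more of all tested genes. Of 8 naive markers *Il7r* (1.04) rose, *Dapl1* (-2.39) and *Ccr7* (-0.62) fell, with a median of -0.13, and *Ccr7* did not pass without WT 2. More naive markers passed without cKO 1, as did more of all tested genes. None of 10 T cell identity genes was called by edgeR, DESeq2, limma voom or the exact test, with 2 at an unadjusted p under 0.05. Without the low-count filter 1, *Trac*, passed. Some passed when cKO 1 or cKO 2 was left out, where more of all tested genes passed too. The median of the 10 was 0.11, with *Trac*, a T cell receptor gene, at 0.33 (edgeR adjusted p = 0.242).

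Markers of other cells were low but not absent. Their calls stand beside 2.35% of all tested genes called higher and 1.95% lower. The B cell list summed to 15.2 and 17.6 CPM for WT and to 64.5 and 26.9 CPM for cKO. Of its 4 tested genes *Pax5* rose by 3.001 (log2, edgeR adjusted p = 0.0407), a call lost without WT 2, without cKO 1 and in limma voom, and *Cd22* was at 1.21 (adjusted p = 0.0529). *Ebf1* was at 0 in cKO 2. The myeloid list summed to 40.5 and 50.2 CPM for WT and to 108.5 and 63.1 CPM for cKO, and 3 of its 10 tested genes rose: *S100a9*, with 0 and 1 counts against 51 and 24, *Lyz2* (2.73), whose call was lost in limma voom, and *Cybb* (1.24). The log2 fold change was negative for 3 others, none past the threshold: *Itgax* (-1.57, edgeR adjusted p = 0.168) and *Itgam* (-0.85), which were lower in both cKO libraries than in both WT libraries, and *Cd68* (-0.29). *Cybb* did not pass without WT 1 or without WT 2. *Cd14* was at 0 in WT 1. Both sums were highest in cKO 1, as were *Pdcd1*, *Ctla4* and *Lag3*, whereas the other 7 members were not, and the part of these cells in the values was not tested. Without cKO 2 the test called more B cell and myeloid markers, and more of all tested genes as well. The log2 fold changes of *Pdcd1* and *Ctla4* without cKO 1 were 0.82 and 0.56, with both calls kept.

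**Figure D5:**
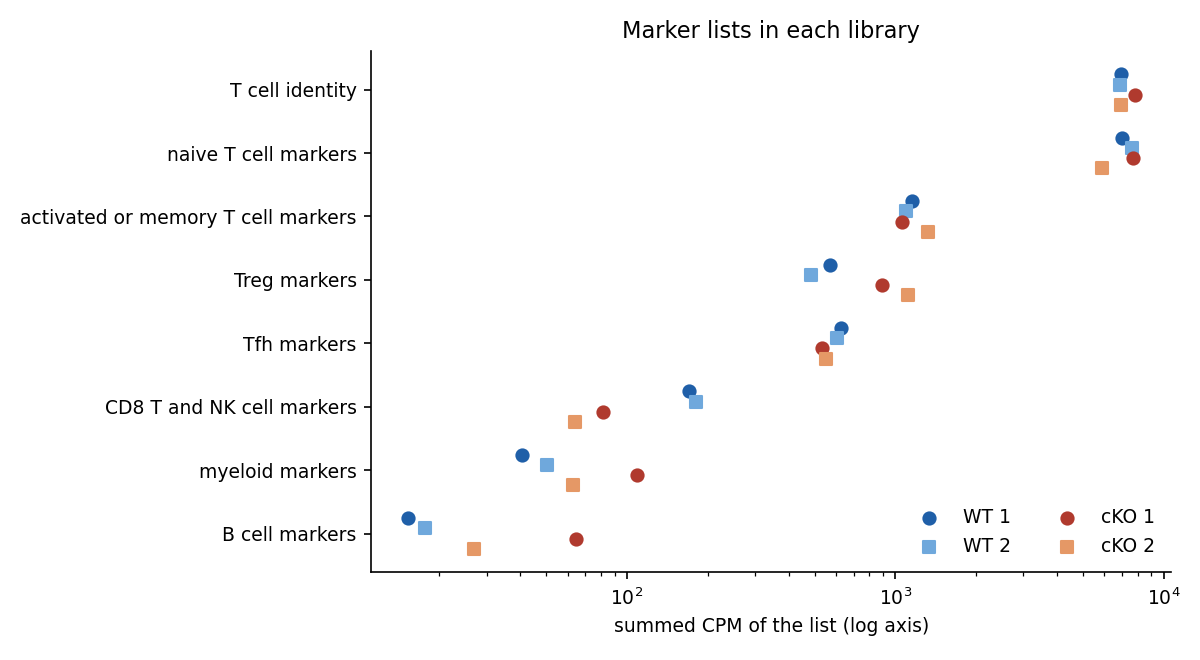
Summed CPM (log axis) of 8 marker lists in each of the 4 libraries; blue marks WT, red and orange mark cKO, circles replicate 1 and squares replicate 2. The Treg, myeloid and B cell sums lie higher in both cKO libraries than in both WT libraries, and the sum of CD8 T and NK cell markers lies lower, as does the Tfh sum, which overlaps between genotypes once *Slamf6* is left out.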

How the data were processed

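The authors aligned reads of 50 bases from sorted cells to mm10 with HISAT2 2.1.0, counted them per gene with HTSeq 0.11.1 (versions from the submitters' processing notes) and deposited raw counts per gene symbol. The annotation and strand setting are not given in the sources used here. Members and gene lists were chosen with earlier results of these data known.

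Counts were analysed with edgeR 4.0.16 in R 4.3.3. Genes were kept by filterByExpr (minimum count 10), scaled by TMM (factors 0.981 to 1.02) and tested with the quasi-likelihood F test on genotype, two-sided, with Benjamini-Hochberg adjustment over 12403 genes and a threshold of 0.05. The HTSeq summary lines were left out. The SE is the absolute log2 fold change over the square root of F, and intervals use the t distribution. The floor of 3 counts covers counting error only, since reads carry no molecular identifiers and can repeat a molecule. Counts of the libraries of a genotype differed beyond sampling noise (chi-square per degree of freedom 2.90 for WT and 6.76 for cKO). Lengths are merged GENCODE M21 exons. All 10 members were named; from each other list the called genes were named or, with fewer than 2 called, the tested genes of smallest p up to 2, and *Satb1* and *Foxp3* always. The others given values, such as *Xist*, *Pdcd1lg2*, *Cd28*, *Icos*, *Cd226*, *Ptpn11*, *Ptpn6*, *Irf4*, *Maf*, *Il2ra*, *Il21*, *Itgax*, *Itgam*, *Cd68*, *Cd8a*, *Adora2a*, *Siglecg* and markers at 0, were chosen after their values were seen. The test was checked on simulated counts. Alternatives used DESeq2 1.42.0, limma 3.58.1 voom, the edgeR exact test, other scalings, filters and thresholds, thinning, autosomes, a replicate block and each library left out.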

Additional observations from a re-analysis of the deposited data

How the results depend on the processing

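The 2 calls among the members were kept by DESeq2, limma voom, the edgeR exact test, both other scalings, both other filters, thinning and autosomes alone. An adjusted p under 0.01 left 0. When a library was left out the members called ranged from 0 (without WT 2) to 3: *Cd274* was added without cKO 1 and *Cd160*, lower, without cKO 2. Those fits leave 1 library in a genotype, which is assumed to vary like the other genotype. The cause was not tested. The adjusted p over all alternatives ran from 1.06e-05 to 0.117 for *Pdcd1* and from 0.000748 to 0.401 for *Ctla4*. In 10 further random thinnings to 4495902 counts, chosen after seeing the data, both genes were called in 10 of 10, and the adjusted p of *Ctla4* ran from 0.0198 to 0.04999. Of 130 values of the members under the alternatives, 119 kept direction and side of the threshold.

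The number of all genes called, 533, was 1044 with the exact test, 1367 without a low-count filter and 153 at an adjusted p under 0.01. It ran from 180 (without WT 2) to 1790 (without cKO 2) when a library was left out, with 1491 without cKO 1. The median of the members ran from 0.14 to 0.31.

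The replicate numbers join no WT library to a cKO library of the same mouse, and deviations of same-numbered libraries correlated by 0.0643. With the replicate block 1165 genes were called in all, and no call among the members changed.

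The sign changed when a library was left out for *Lag3* (-0.12 to 0.49), *Tigit* (-0.18 to 0.28), *Havcr2* (-0.77 to 0.041), *Btla* (-0.064 to 0.10), *Cd274* (-0.12 to 0.49) and *Satb1* (-0.13 to 0.042). Among the other called genes, DESeq2 did not call *Bcl6*, *Cybb*, *Il7r*, *Lgals3*, *Nrp1* and *Tbx21*. *Tbx21* (adjusted p = 0.0494) also lost its call with total counts, thinning and autosomes alone, and was called in 8 of 14 alternatives. In limma voom *Pax5* and *Lyz2* lost theirs, with adjusted p of 0.100 and 0.0575. *Havcr2* had too few counts for the low-count filter.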
